A study of Mus musculus with 6 samples.

Results

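The regulatory B subunits of protein phosphatase 2A (PP2A) were followed by the RNA of 10 genes, taken by symbol from 19733 genes that had a probe set of their own on the array. The B55 family had 4 of them (Ppp2r2a, Ppp2r2b, Ppp2r2c and Ppp2r2d), the B56 family 5 (Ppp2r5a, Ppp2r5b, Ppp2r5c, Ppp2r5d and Ppp2r5e) and the B'' family 1 (Ppp2r3a). All 10 had at least 1 probe set annotated to that gene alone. Where a gene had several, the one with the highest mean over the 6 arrays was used. The study asked how loss of PP2A bears on malignant pre-B cells. All arrays came from mouse bone marrow pre-B cells that were Ppp2r1a fl/fl and had been transduced with BCR-ABL1, a fusion kinase of B cell leukaemia. In the Cre group (3 arrays) these cells had also received a vector with Cre recombinase, which removes the floxed Ppp2r1a, the main scaffold gene of PP2A. In the empty vector (EV) group (3 arrays) they had received the vector alone, so the EV cells carried the floxed alleles as well, although the genotype label calls them wild type. Cre in cells without floxed alleles was not analysed here, so an effect of Cre itself and loss of Ppp2r1a cannot be told apart. The labels do not say whether the 3 repeats of a group were separate cultures or animals, so p-values cover the variation among these 6 arrays alone, and part of it may be technical. The age of the animals and the time after Cre are likewise not stated in the labels.

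PP2A is built from a scaffold A subunit, a catalytic C subunit and 1 of many B subunits, and the B subunit sets where the enzyme goes and which phosphoproteins it acts on. B55 subunits are beta-propeller proteins whose best known work is to reverse Cdk1 phosphorylation as cells leave mitosis. B56 subunits are made of helical repeats, recognise a short linear motif in their partners, and work at centromeres and on growth regulators such as Myc. The B'' subunits bind calcium. All of them dock on the scaffold, whose main gene, Ppp2r1a, Cre is meant to remove here. The arrays measure RNA, so the amount of B subunit protein and the make-up of the holoenzyme were not assessed.

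Values are log2 levels made with RMA by the authors, and a difference is Cre minus EV on that scale. A level also depends on how well a probe set binds its target, so levels were not ranked between genes. The probe set of Ppp2r1a (10442155) read 7.12, 6.98 and 6.92 in the Cre arrays, against 9.06, 9.05 and 9.06 in the EV arrays. It was lower in Cre, as the labels have it, yet above the array median on all 6 arrays. What the remaining signal in Cre cells comes from was not tested. Of 12 pre-B markers 11 had a probe set, and 10 of these were above the array median on all 6 arrays, among them Cd79a, Pax5 and Vpreb1. The exception was Rag2, of the V(D)J recombinase. Of the 11, 3 were called lower in Cre and 0 higher (limma adjusted p below 0.05), against 2.14% and 1.35% of all genes. Rag1 averaged 6.72 in Cre cells and 8.82 in EV cells (limma adjusted p = 0.000155). Rag2 averaged 5.75 in Cre cells and 7.59 in EV cells (limma adjusted p = 0.0047). Dntt averaged 9.36 in Cre cells and 9.83 in EV cells (limma adjusted p = 0.030). All 5 T cell, 8 myeloid and 4 erythroid markers with a probe set were below the array median on all 6 arrays. Among 5 stromal markers, 3 lay below it on all arrays and Col1a1 above it, at 5.75 in both groups. Across all genes, arrays of different groups correlated with r between 0.9913 and 0.9923, and arrays of the same group with r between 0.9955 and 0.9963.

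None of the 10 B subunit genes passed the test between Cre and EV cells (limma, adjusted p below 0.05 over all genes), where 3.49% of all genes passed. The differences ran from -0.17 to 0.17, with 7 above and 3 below 0, where 49.1% of all genes were above 0. The members' median was 0.03, beside -0.003 over all genes, and the median size was 0.10, beside 0.09 over all genes. At an unadjusted p below 0.05 there was 1 member, Ppp2r2d, against 16.1% of all genes. For Ppp2r2d and Ppp2r3a the 2 groups did not overlap, which makes 2 of 10 members, against 22.5% of all genes. The shares that passed, reached an unadjusted p below 0.05 or did not overlap are at or below the background. None of these counts, nor that of directions, is a result about the family.

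The precision of the arrays sets what this leaves possible. The 95% interval of each member's difference, unadjusted for the number of genes, lay within 1.5-fold in either direction for all 10 members. This holds for the chosen probe sets, while the further probe set 10398459 of Ppp2r5c, described below, admits up to 1.62-fold. Among the chosen probe sets, the largest change in signal that an interval admits was smallest for Ppp2r5c, at 1.12-fold. It was largest for Ppp2r2c, at 1.43-fold. Ppp2r2b, Ppp2r2c, Ppp2r5b and Ppp2r3a, 4 of the members, read below the array median on all arrays. For these dim members the fold in RNA may be larger than the interval of the signal admits. For 9 of the 10 the interval included 0. Changes inside these intervals remain possible, and the p-values do not show that the levels were equal.

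**Figure D1:**
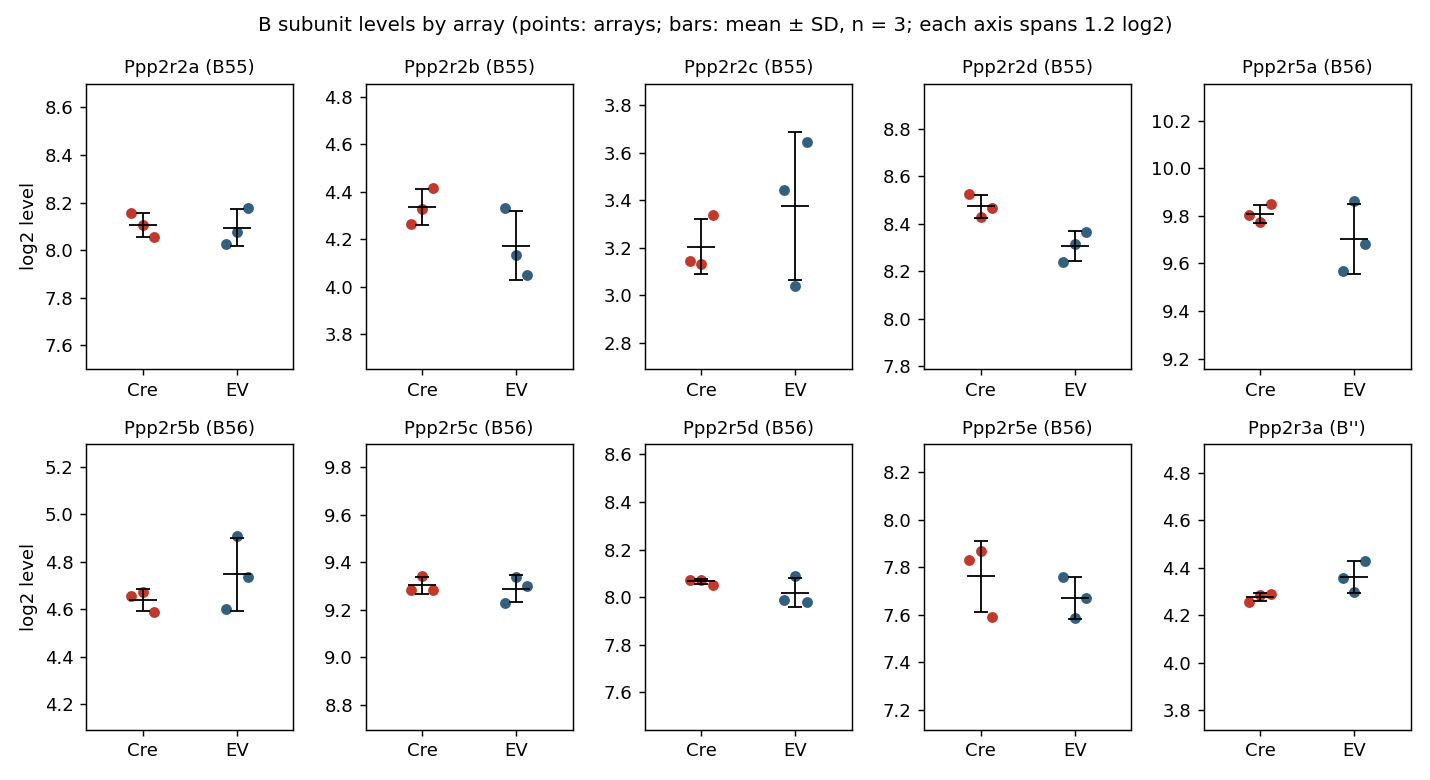
Log2 level of each B subunit gene (vertical axes, each spanning 1.2 log2 units) in the 3 Cre arrays (red, left) and the 3 EV arrays (blue, right), with bars for the mean ± SD. The groups overlap for every gene except Ppp2r2d and Ppp2r3a.

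In the B55 family, Ppp2r2d was the member closest to the threshold. It is a broadly expressed B55 subunit on chromosome 7. Its level was 8.52, 8.43 and 8.465 in the Cre arrays, against 8.24, 8.31 and 8.36 in the EV arrays. Every Cre array read above every EV array, but the gap between the lowest Cre and the highest EV value was smaller than the range within either group. The means were 8.47 ± 0.05 in Cre cells and 8.30 ± 0.06 in EV cells (SD, n = 3 each). The difference of 0.17 (SE 0.07, 95% interval 0.01 to 0.32) is 12.4% on the linear scale, and its limma adjusted p was 0.266.

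Ppp2r2a, the B55 subunit most studied in mitotic exit, lies on chromosome 14. It read 8.16, 8.11 and 8.06 in the Cre arrays, against 8.03, 8.08 and 8.18 in the EV arrays. The groups overlapped fully, and the EV arrays held both the lowest and the highest value. The means were 8.11 ± 0.05 in Cre cells and 8.09 ± 0.08 in EV cells (SD, n = 3 each), a difference of 0.01 (SE 0.07, 95% interval -0.15 to 0.17). The interval reaches 1.13-fold at most.

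Ppp2r2b and Ppp2r2c are known mainly from brain, and both read below the array median on all 6 arrays. Ppp2r2b gave 4.27, 4.33 and 4.42 in the Cre arrays, against 4.33, 4.14 and 4.05 in the EV arrays. One EV array lay among the Cre values and the others below them. The difference was 0.16 (SE 0.09, 95% interval -0.04 to 0.37; limma adjusted p = 0.441). Ppp2r2c gave 3.145, 3.13 and 3.34 in the Cre arrays, against 3.44, 3.04 and 3.65 in the EV arrays. The EV values enclosed all the Cre values, with a range of 0.61 in EV cells, the widest of any member. Its difference of -0.17 (SE 0.15, 95% interval -0.52 to 0.18) had the widest interval of the 10, and with 1 array left out it ranged from -0.34 to -0.04. No detection calls were used, and at such low values a log2 difference may understate the fold.

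In the B56 family the groups overlapped for all 5 genes on the probe set chosen by its mean; further probe sets of Ppp2r5a differ in this and are described after the family. Ppp2r5a, described in human cells as a B56 subunit that directs PP2A to Myc, lies on chromosome 1. It read 9.80, 9.77 and 9.85 in the Cre arrays, against 9.57, 9.86 and 9.68 in the EV arrays. The Cre arrays were close together and fell inside the EV range. The difference was 0.10 (SE 0.09, 95% interval -0.09 to 0.30; limma adjusted p = 0.626).

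Ppp2r5c, which in human cells has been tied to p53 dephosphorylation, lies on chromosome 12. Its level was 9.28, 9.34 and 9.28 in the Cre arrays, against 9.23, 9.34 and 9.30 in the EV arrays. The groups overlapped throughout. The means of 9.30 ± 0.04 in Cre cells and 9.29 ± 0.06 in EV cells (SD, n = 3 each) differed by 0.01 (SE 0.06, 95% interval -0.13 to 0.16).

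Ppp2r5d, on chromosome 17, gave 8.07, 8.07 and 8.05 in the Cre arrays, against 7.99, 8.09 and 7.98 in the EV arrays. The highest single value was an EV array, and the other 2 EV arrays lay below all Cre arrays. The difference was 0.05 (SE 0.06, 95% interval -0.10 to 0.19). Ppp2r5e, on chromosome 12, gave 7.83, 7.87 and 7.59 in the Cre arrays, against 7.76, 7.585 and 7.67 in the EV arrays. One Cre array read with the lowest EV array, and the others were above all of them. The difference was 0.09 (SE 0.09, 95% interval -0.13 to 0.31). With 1 array left out it ranged from 0.04 to 0.18, lowest without Cre replicate 2 and highest without Cre replicate 3, and did not pass in any of these 6 fits.

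Ppp2r5b, a B56 subunit known mainly from brain, lies on chromosome 19 and read below the array median on all 6 arrays. Its values were 4.66, 4.67 and 4.59 in the Cre arrays, against 4.60, 4.91 and 4.735 in the EV arrays. The lowest EV array sat among the Cre arrays and the other 2 EV arrays above them. The difference was -0.11 (SE 0.09, 95% interval -0.31 to 0.10; limma adjusted p = 0.620).

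Ppp2r3a, the B'' member, on chromosome 9, also read below the array median on all 6 arrays. It gave 4.26, 4.28 and 4.29 in the Cre arrays, against 4.36, 4.30 and 4.43 in the EV arrays. All Cre values were below all EV values, by 0.009 at the closest pair, so the separation is narrower than the spread in either group. The difference was -0.08 (SE 0.06, 95% interval -0.23 to 0.06; limma adjusted p = 0.594). The spread between arrays was larger in EV than in Cre cells for 9 of the 10 members, Ppp2r5e being the exception, with median SDs of 0.05 in Cre cells and 0.08 in EV cells. Over all genes, 52.4% had the larger SD in EV, with median SDs of 0.09 in Cre cells and 0.10 in EV cells.

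**Figure D2:**
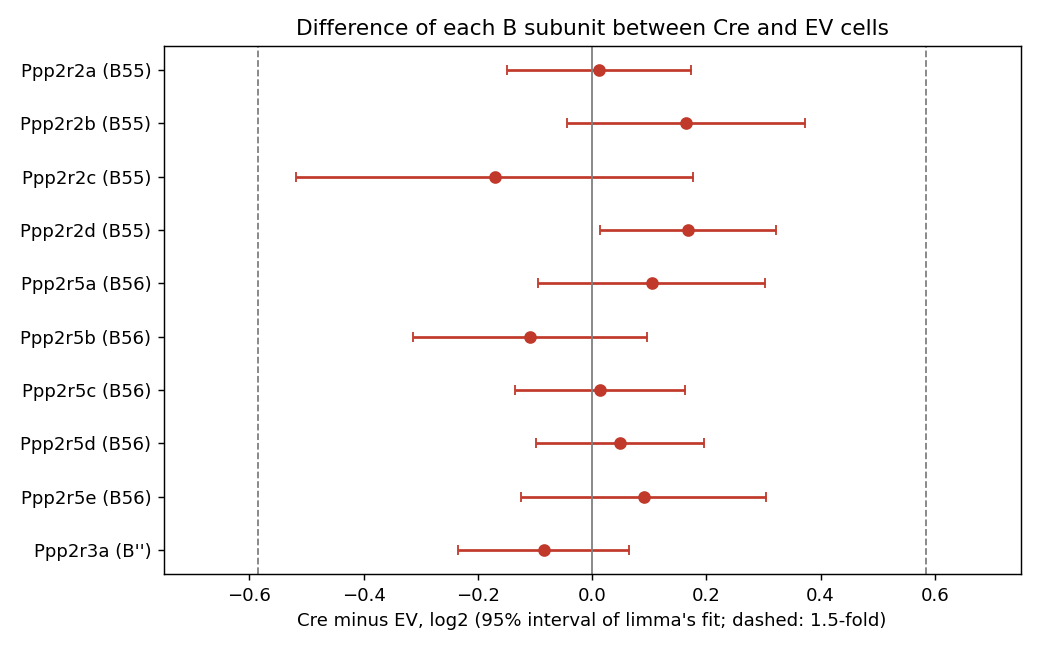
Difference between Cre and EV cells (horizontal axis, log2) for each B subunit gene, with its 95% interval from limma's fit on 3 arrays per group. Each gene is shown by its chosen probe set. All 10 intervals lie between the dashed lines at 1.5-fold, and that of Ppp2r2d alone leaves out 0.

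Ppp2r5a and Ppp2r5c were the 2 members with several probe sets, 4 each. For Ppp2r5a the further probe sets separated the groups, where the one chosen by its mean did not. They were compared in a fit of all 25006 probe sets, of which 3.17% passed and 23.4% had groups that did not overlap. This was done after their values were seen. Probe set 10510197 read 7.78, 7.66 and 7.72 in the Cre arrays, against 7.43, 7.47 and 7.52 in the EV arrays. Every Cre array was above every EV array, and the gap was wider than the range within either group. The difference was 0.24 (SE 0.06, 95% interval 0.10 to 0.39), which is 18.3% on the linear scale, at a limma adjusted p of 0.102.

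Probe set 10518341 of Ppp2r5a averaged 8.24 ± 0.05 in Cre cells and 8.02 ± 0.04 in EV cells (SD, n = 3 each), a difference of 0.22 (limma adjusted p = 0.119). Probe set 10510162 averaged 8.27 ± 0.05 in Cre cells and 8.07 ± 0.03 in EV cells, a difference of 0.20 (limma adjusted p = 0.1475). In both, as in 10510197, the groups did not overlap. The 3 probe sets are not independent: after each was centred on its own mean, they differed from each other by at most 0.07 on any array, and from the chosen probe set 10361104 by up to 0.25. The platform annotation gives these 3 probe sets 2 of the 3 transcript accessions it gives the chosen one. Where on the gene or genome each lies is not given in the tables used here, and whether they read the same RNA as 10361104 was not tested. With the mean of all 4 probe sets as the value of Ppp2r5a, the difference was 0.19 in place of 0.10, and it still missed the threshold (limma adjusted p = 0.169).

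The further probe sets of Ppp2r5c did not separate the groups. Probe set 10398453 differed by 0.04 (95% interval -0.10 to 0.17), 10398455 by -0.18 (95% interval -0.55 to 0.19) and 10398459 by 0.21 (95% interval -0.28 to 0.70). The last of these spread over 0.65 within the Cre arrays and 0.58 within the EV arrays, so its interval admits a change of up to 1.62-fold. In the annotation each of them shares 2 of the 10 transcript accessions of the chosen probe set 10398461.

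**Figure D3:**
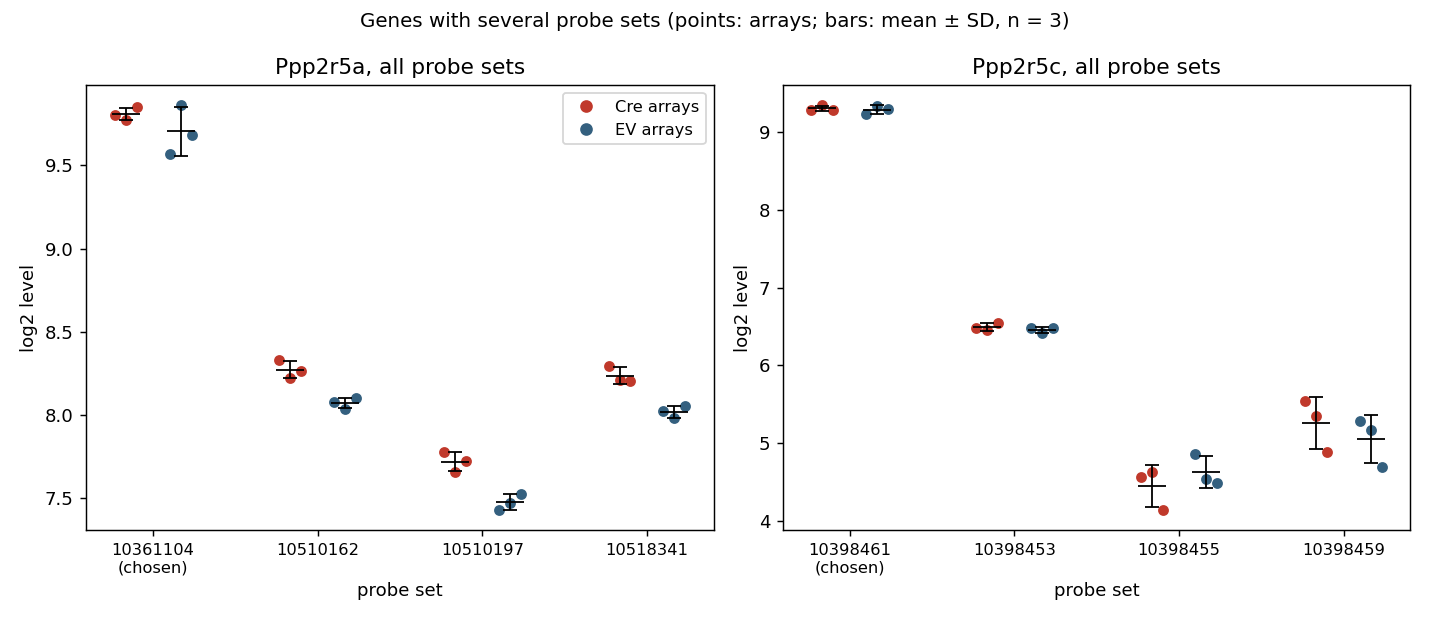
Log2 levels (vertical axes) of all 4 probe sets of Ppp2r5a (left) and of Ppp2r5c (right), with points for the 3 Cre arrays (red) and the 3 EV arrays (blue) and bars for the mean ± SD. The chosen probe set of Ppp2r5a overlaps between groups, while in its 3 others all Cre arrays lie above all EV arrays.

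Start-site sequence was set beside these levels for members above and below the array median. RefSeq's promoter table (GRCm38.p6) held 11 start sites for 7 of the members: Ppp2r2c, Ppp2r2d, Ppp2r3a, Ppp2r5a, Ppp2r5b, Ppp2r5c and Ppp2r5d. The dinucleotide CG, which reads the same on both strands, was counted in the 250 bases before each start. Of all 32851 such windows in the table, 92.1% held at least 1, with a median of 6. The windows of Ppp2r2d at chr7:138846109-138846358 (plus strand), Ppp2r2c at chr5:36868260-36868509 (plus strand) and Ppp2r5a at chr1:191397042-191397291 (minus strand) are printed here 5′ to 3′ with each CG in capitals. They stand for the member closest to the threshold, the dim member with the widest interval, and the member whose probe sets differed in group overlap.
Ppp2r2d: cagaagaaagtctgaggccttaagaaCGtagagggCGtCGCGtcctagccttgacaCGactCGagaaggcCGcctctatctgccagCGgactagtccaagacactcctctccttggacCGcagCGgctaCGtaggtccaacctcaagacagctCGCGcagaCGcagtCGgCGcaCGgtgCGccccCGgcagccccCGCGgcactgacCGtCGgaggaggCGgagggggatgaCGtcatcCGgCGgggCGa
Ppp2r2c: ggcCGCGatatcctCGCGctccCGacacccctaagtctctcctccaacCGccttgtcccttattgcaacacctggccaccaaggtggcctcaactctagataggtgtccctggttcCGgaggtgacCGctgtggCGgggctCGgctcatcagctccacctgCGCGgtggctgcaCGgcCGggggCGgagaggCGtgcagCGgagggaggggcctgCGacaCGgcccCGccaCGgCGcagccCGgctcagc
Ppp2r5a: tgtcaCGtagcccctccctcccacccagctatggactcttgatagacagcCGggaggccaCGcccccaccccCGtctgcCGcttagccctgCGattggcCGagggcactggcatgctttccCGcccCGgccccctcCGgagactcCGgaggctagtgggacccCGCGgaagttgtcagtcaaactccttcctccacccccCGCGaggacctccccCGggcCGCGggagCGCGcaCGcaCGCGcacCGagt

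Among the members above the array median on all arrays, the windows of Ppp2r5c held 31 and 5 CG, those of Ppp2r2d 28 and 29, that of Ppp2r5a 24, and both of Ppp2r5d 14. Among those below it, the window of Ppp2r2c held 23, those of Ppp2r3a 17 and 1, and that of Ppp2r5b 10. The 2 sets of members overlapped in CG count, and with 7 genes no relation was tested. For 6 of the 7 members the richer window held more CG than at least 70.6% of all windows did, and for Ppp2r5b than 62.2%. The count describes the letters of the window and says nothing of which start the cells use.

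By pattern over the 6 arrays, the genes most like Ppp2r2d were Mgst3, a microsomal glutathione transferase (Pearson r = 0.998), Ap2a1, an adaptor subunit of clathrin coats (r = 0.995), and Spag5, a spindle protein (r = 0.993). None of the 3 passed the test either. Mgst3 averaged 7.64 in Cre cells and 7.40 in EV cells (limma adjusted p = 0.158). The r rests on 6 arrays in 2 groups, and 371 other genes of the 19733 reached an r of 0.9 with Ppp2r2d.

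The other genes of PP2A and of its control were read in the same fit. Of 4 core subunits, Ppp2r1a fell by 2.05 (SE 0.07; limma adjusted p = 1.203e-05) and the other 3 did not pass. Ppp2r1b, the second scaffold gene, averaged 7.09 ± 0.15 in Cre cells and 6.99 ± 0.07 in EV cells (SD, n = 3 each), a difference of 0.11 with a 95% interval of -0.10 to 0.32. None of 4 other regulatory subunits passed, the striatins among them, with Strn4 at -0.11 and Ppp2r3c at 0.05. Ppp2r3d, a further entry of that list, was not matched to a probe set of its own. The background is 1.35% of all genes higher and 2.14% lower in Cre.

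None of 6 listed genes that act on B55 passed, where 3.49% of all genes did. Mastl encodes the Greatwall kinase, which phosphorylates Ensa and Arpp19 into inhibitors of PP2A-B55. Mastl differed by 0.05 (95% interval -0.12 to 0.23) and Ensa by 0.05 (95% interval -0.13 to 0.22). All 6 genes of that list lay between -0.03 and 0.06. Among 9 genes of PP2A assembly, methylation and inhibition 0 passed, against the same 3.49% of all genes. Neither count is a result about its list. Igbp1, which holds the free catalytic subunit, differed by -0.28 (95% interval -0.44 to -0.11; limma adjusted p = 0.0879), and Cip2a, a PP2A inhibitor that works on B56, by 0.32 (95% interval 0.13 to 0.51; limma adjusted p = 0.0934).

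Partners and described substrates of the B subunits held the calls outside the core enzyme. Among 10 partners and recruiters of B56, 1 rose and 0 fell, against 1.35% of all genes higher and 2.14% lower in Cre. The 1 that rose was Ccng1, whose product binds B56 subunits. It averaged 10.54 ± 0.05 in Cre cells and 10.10 ± 0.004 in EV cells (SD, n = 3 each; limma adjusted p = 0.00833). The list's median was 0.12, the other 9 lay between -0.25 and 0.23, and in 7 of the 10 the groups did not overlap, against 22.5% of all genes, a description from which nothing is read about the list. Ccng2, its paralogue, averaged 7.77 in Cre cells and 8.02 in EV cells, and did not pass.

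Of 6 described B56 substrates, 2 fell and 0 rose, where 2.14% of all genes were lower and 1.35% higher in Cre. The substrate lists were chosen with earlier results of these data known, so nothing about the lists is read from their counts. Bcl2, a survival protein, averaged 7.74 ± 0.15 in Cre cells and 8.54 ± 0.10 in EV cells (SD, n = 3 each), 1.73-fold lower in Cre (limma adjusted p = 0.004675). Myc averaged 10.31 ± 0.35 in Cre cells and 11.31 ± 0.08 in EV cells, 2.00-fold lower in Cre (limma adjusted p = 0.0167). The other 4 were Mdm2, Bad, Racgap1 and Chek2, at -0.13 to 0.15. Of 8 described B55 substrates with a probe set, Cdc20, the activator of the anaphase-promoting complex, was the 1 that rose, by 0.34 (SE 0.07; limma adjusted p = 0.0331), and 0 fell. The call of Cdc20 was lost with the repeat number as a block (adjusted p = 0.0935 in limma) and in all 6 fits with 1 array left out (0.0692 to 0.112). Myc lost its call in 4 of these fits, those without Cre replicate 1 and without each EV replicate in turn, where its adjusted p reached 0.0662. These are RNA levels, while the B subunits act on the phosphorylation of the proteins, which was not measured.

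**Figure D4:**
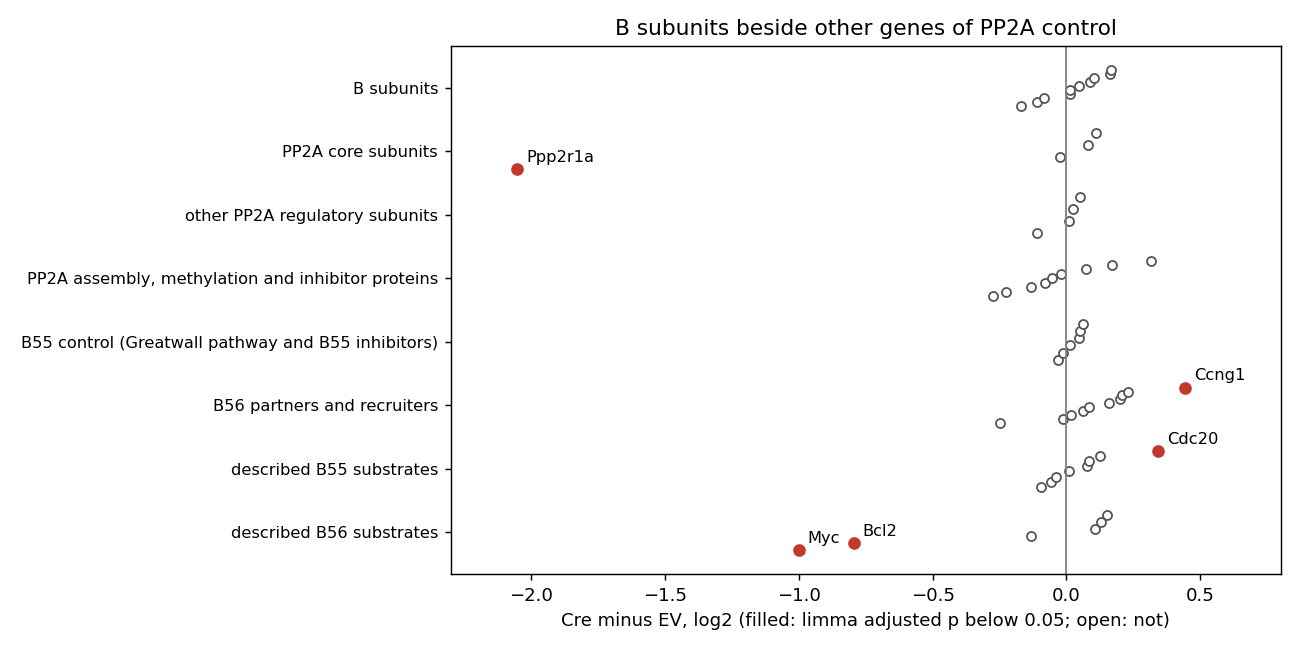
Difference between Cre and EV cells (horizontal axis, log2) for the 10 B subunit genes and for 7 lists of other genes around PP2A, 1 point per gene. Filled points passed the test (limma adjusted p below 0.05): Ppp2r1a, Myc and Bcl2 were lower and Ccng1 and Cdc20 higher in Cre cells, and no B subunit is among them.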

How the data were processed

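Per the labels' protocols, biotin-labelled cRNA of the 6 samples went onto Affymetrix arrays with 1 colour. The deposited values, a log2 level for each probe set on each array, were made by the authors with RMA, per the submitters' processing notes, which give no version. RMA's quantile step hides any change shared by all genes. Array medians lay between 5.22 and 5.27, and precision is limited by having 3 arrays per group. Of 25006 probe sets, 21467 had 1 gene symbol in the platform annotation, 1521 several and 2018 none. Of the 21467, 21386 took their symbol from a RefSeq table (GRCm38.p6) by gene ID, whether or not it differed. For 931 genes the brightest of several probe sets was taken, which left 19733 genes.

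Groups came from the titles. Cre was compared with EV by limma 3.58.1 in R 4.3.3 (lmFit, eBayes, group only, no filter on dim probe sets), with Benjamini-Hochberg adjustment over all genes and a call at an adjusted p below 0.05. The script was tested on simulated data. Tables used Python 3.11.15 with pandas 2.3.3 and plots matplotlib 3.10.9. The members and lists were chosen with earlier results of these data known. Named were all members, list genes that passed (the 2 smallest p where none did), and the 3 genes most like the member with the smallest p; Ppp2r1b, Ccng2, Mdm2, Bad, Racgap1, Chek2 and the markers were named beside them. Between arrays of equal repeat number, deviations from the group means correlated between -0.012 and 0.03. No pairing was seen in these values, which cannot decide whether equal numbers share a culture or animal. Alternatives covered normalization, dim probe sets, eBayes settings, probe choice, the repeat number as a block and each array left out.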

Additional observations from a re-analysis of the deposited data

How the results depend on the processing

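No B subunit gene passed the test in any of the 14 alternatives that tested it, 6 of them with 1 array left out. Of 135 recomputed differences of single members 131 kept their direction and 0 passed, with a smallest adjusted p of 0.0747 for Ppp2r2d (limma). The other 4 were those of members near 0: with 1 array left out Ppp2r2a ranged from -0.0217 to 0.0548 and Ppp2r5c from -0.0167 to 0.0383. In the same fits Ppp2r2c ranged from -0.339 to -0.035, Ppp2r5a from 0.0367 to 0.1827 and Ppp2r5b from -0.1818 to -0.0288. Ensa (-0.0077 to 0.0873) and Ppp2r3c (-0.0122 to 0.093) also changed sign there. The number of called genes, 689 in the report, was 1295 without the lowest 50% of genes by mean level, 1558 with trend and robust settings, 425 with the repeat number as a replicate block, and 362 to 424 with 1 array left out. The block changed the call of 1 named gene, Cdc20, and the labels do not say what equal numbers share. The differences of the 3 further Ppp2r5a probe sets lay between 0.1722 and 0.2725 with the block or 1 array left out, with adjusted p between 0.1673 and 0.3406. Igbp1 passed in 3 and Cip2a in 2 of the 8 alternatives that kept all arrays. The cause of these shifts was not tested. Without detection calls, signal over background was not assessed.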
